A study of Saccharomyces cerevisiae with 31 samples.

Results

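The genes described here encode the proteins of the cytosolic ribosome of budding yeast (Saccharomyces cerevisiae). They were chosen by name alone, as RPL or RPS followed by a number and an optional A or B, together with the P-stalk genes RPP0, RPP1A, RPP1B, RPP2A and RPP2B. The rule found 137 of the 6713 genes in the authors' deposited table. Of these, 81 belong to the large subunit, the 5 P-stalk genes included, and 56 to the small subunit. They comprise 59 pairs of paralogues, named A and B copy, and 19 genes without a second copy.

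The large subunit joins amino acids into protein and the small subunit reads the messenger RNA. Ribosomal protein genes are among the most strongly transcribed genes of a growing yeast cell. The factors Rap1, Fhl1 and Ifh1 act at their promoters, under control of the nutrient-sensing TOR and protein kinase A pathways. Most of the A and B copies stem from an ancient duplication of the whole genome, and the proteins they encode are nearly or fully alike. Introns, rare in yeast, are common in this gene family, and several members limit their own expression through the splicing or the decay of their transcripts.

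RNA abundance was followed while cells of an engineered strain grew without dividing. The strain Cdc28-as has an engineered Cdc28, the kinase of the cell cycle, that accepts the bulky inhibitor 1NM-PP1 and is blocked by it. In 3 experiments Cdc28-as cells were first sorted by size in a centrifuge (elutriation) before 1NM-PP1 was added. Cell size spanned 15.23 to 50.77 fl over 5 libraries in experiment 1, 14.92 to 41.8 fl over 3 libraries in experiment 2 and 18.61 to 66.46 fl over 3 libraries in experiment 3. A Cdc28-as time course without elutriation spanned 21.56 to 44.02 fl over 8 libraries. Wild-type (WT) cells, without the engineered Cdc28, received the same agent. They formed an elutriated series (2 to 7 h, 6 libraries) and an unelutriated one (0 to 6 h, 6 libraries). All 31 libraries came from cells in YEP medium with 1% ethanol, and a known amount of Candida albicans BWP17 cells was added before extraction of total RNA. The labels do not say whether experiments came from separate cultures, so p-values measure the spread between these experiments.

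The authors deposited 1 scaling score per gene and series and no value per library. The score behaves as the slope of a gene's abundance, relative to the first library of the series, on cell size in fl for Cdc28-as cells and on hours for WT cells, a reading checked on the values of experiments 1 and 3 and the WT series and assumed for experiment 2 and the time course. A score of 0 then means no trend. A level growing in proportion to cell size would score 0.0657 per fl in experiment 1, 0.0670 in experiment 2, 0.0537 in experiment 3 and 0.0464 in the time course. Because the scales differ, each gene's place among all scored genes of a series is also given as a percentile, where 50 is the median gene. Depth per library is unknown. The authors' median read count per gene in experiment 1 ran from 4 to 599 over the ribosomal protein genes with a median of 152, against a median of 19 over all genes. These genes took 8.15% of the summed read count, and 136 of 137 had at least 10 reads. Per kb of coding sequence their median was 346 reads, against 16.6 over all genes. In bulk RNA, fewer cells of one kind and less RNA per cell cannot be told apart.

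The median ribosomal protein gene scored above the median of all genes in every series, but its lead differed widely between the elutriation experiments. Their median score was 0.0792 per fl in experiment 1, against 0.00701 for the median gene, which put the median member at percentile 89.9. In experiment 2 the median member scored 0.0174 per fl, against 0.0108 for the median gene (percentile 60.5). In experiment 3 it scored 0.00391 per fl, against 0.00132 for the median gene (percentile 58.1). Over the 3 experiments the median percentile thus averaged 69.5 ± 17.7 (SD, n = 3). In the time course 135 of the 137 members scored below 0, with a median of -0.0119 per fl, yet they stood high among all genes (percentile 80.7), since the median gene scored -0.0201 per fl and only 4.68% of all scored genes exceeded 0.

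No source used here says whether the scored level is RNA per cell or a share of the library. The counts below therefore do not show whether RNA per cell grew in proportion to size. Against the score of a level proportional to size, experiment 1 stood alone. There 87 members exceeded the score of a level proportional to size, against 12.9% of all scored genes. In experiment 2 only 5 members did, against 8.87% of all scored genes. In experiment 3 and the time course 0 members did, against 3.14% and 0.632% of all scored genes. A score above 0 was found for 137, 125 and 121 members in experiments 1 to 3, where 61.0%, 69.1% and 55.3% of all scored genes were above 0.

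The direction against the median gene was one-sided. In all 3 elutriation experiments 74 of 137 members (54.0%) scored above the median gene, against 22.3% of the 5771 genes scored throughout, over which the median was taken, and against 25.5% of those with at least 10 reads. No member scored below it in all 3, against 22.5% of all genes. With the time course added, 73 members (53.3%) were above the median gene in each of the 4 Cdc28-as series, against 13.1% of all genes, and 0 were below, against 13.4%. The count above in every experiment was 81 to 104 when any 1 experiment was left out, and the count below became 13 without experiment 1 and 1 without experiment 2. Such counts tend to rise with fewer experiments to satisfy, and the share over all genes was not computed for these omissions. Taken singly, and against the median of all genes scored in that series, members above the median gene numbered 135 in experiment 1, 95 in experiment 2, 110 in experiment 3 and 134 in the time course. By copy, 27 of 59 A copies, 40 of 59 B copies and 7 of 19 single-copy genes were above the median gene in all 3 experiments. The protein genes of the mitochondrial ribosome, a separate family, had 38 of 75 above it in all 3.

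No single member passed the test. In limma's moderated one-sample fit over the 3 experiments, on 5771 genes with Benjamini-Hochberg adjustment, 0 of 137 members and 0% of all genes had an adjusted p under 0.05. Estimates lay above the median gene for 135 members, and for 101 without experiment 1. The share over all genes was not counted, but their median estimate was also above 0, at 0.00249 per fl, against 0.0264 per fl over the members. At an unadjusted p under 0.05 there were 2 members, both higher, against 5.27% of all genes that were higher at that level. They were RPL22B, with 0.0564 ± 0.0174 per fl over the median gene (SE), and RPL1B, named after its value was seen, with 0.0374 ± 0.0124 per fl (SE). By limma their adjusted p was 0.460 in both cases. Left-out experiments gave 1, 0 and 9 members at the unadjusted level without experiments 1, 2 and 3. Among all genes, 275 of 6158, 152 of 5795 and 319 of 5896 were higher at that level in these fits.

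**Figure D1:**
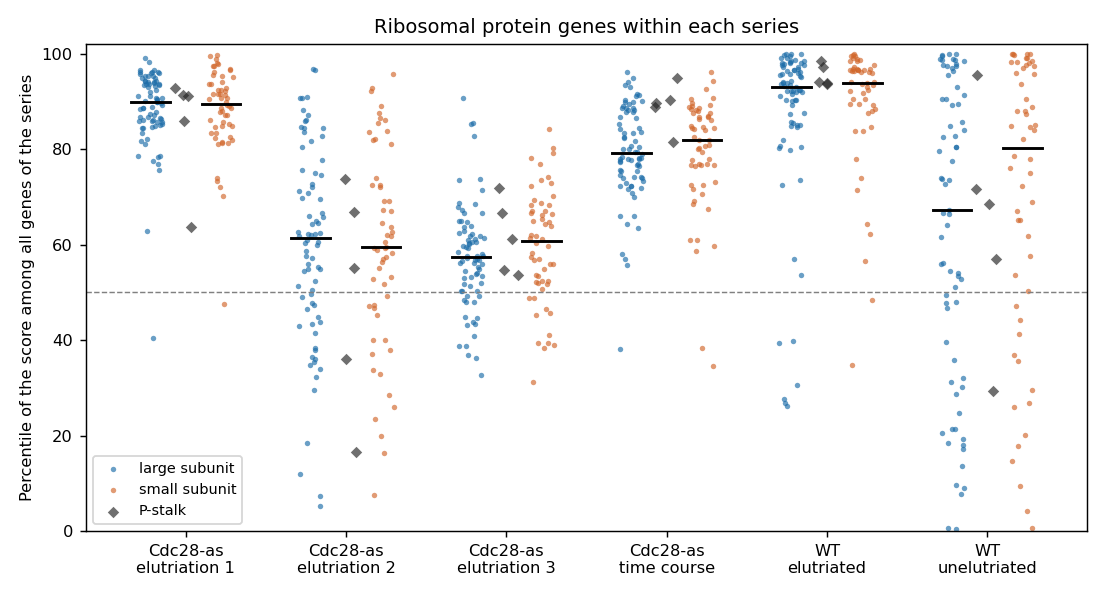
Percentile of each ribosomal protein gene's score among all scored genes (vertical axis, 0 to 100) in the 6 series; points are genes, diamonds the 5 P-stalk genes, black bars the medians of the other large subunit genes and of the small subunit genes, and the dashed line the median gene. Nearly all points of experiment 1 and the time course lie above the line, whereas experiment 2 and the WT unelutriated series spread across it.

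In WT cells the family also stood high, on a scale that cannot be set beside the fl scores. In the elutriated WT series 131 members were scored, with a median of 10.4 per h (percentile 93.6), against 0.136 per h for the median gene, and 128 of them exceeded 0, against 69.6% of all scored genes. The median score amounts to a gain of 52.0 times the first library's level over the series. Levels in the first library are not in the table, so whether low first values set these scores was not tested. In the unelutriated WT series 130 members had a median of 0.0248 per h (percentile 73.7), against -0.0390 per h for the median gene, and 75 exceeded 0, against 34.2% of all scored genes. Their percentiles there were spread (SD 30.6 over genes) as widely as those of all genes (SD 28.9). Of the 124 members scored in both WT series, 83 were above the median gene in both, against 26.9% of all genes.

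Large and small subunit genes scored close to each other in the Cdc28-as series. In experiment 1 the median score was 0.0798 per fl for large and 0.0770 per fl for small subunit genes. Experiment 2 gave 0.0178 per fl for large and 0.0167 per fl for small subunit genes, and experiment 3 gave 0.00377 per fl for large and 0.00489 per fl for small ones. The difference, large minus small, averaged 0.000912 ± 0.00198 per fl (SD, n = 3), which is smaller than its spread between experiments. Its sign was not stable either, since it was -4.4951e-05 per fl without experiment 1.

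In the time course large subunit genes had a median of -0.0122 per fl and small subunit genes -0.0113 per fl. In WT cells the elutriated medians were 10.1 per h for large and 11.6 per h for small subunit genes, at percentiles 93.5 and 93.9. The unelutriated WT series had the widest gap, with percentile 67.8 for 76 large and 80.3 for 54 small subunit genes, a single series that allows no test. Above the median gene in all 3 elutriation experiments were 43 of 81 large and 31 of 56 small subunit genes.

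Within the large subunit, the 6 genes with the highest mean percentile over the elutriation experiments were RPL33B, RPL22B, RPL6B, RPL7B, RPL9B and RPL8A, of which 5 are B copies. RPL33B (chromosome XV, 778555 to 779405) scored 0.156, 0.0654 and 0.0174 per fl in experiments 1 to 3 and -0.0140 per fl in the time course. RPL22B (chromosome VI, 64243 to 64932), whose splicing the Rpl22 protein is known to inhibit, scored 0.103, 0.0656 and 0.0205 per fl, and -0.0112 per fl in the time course. RPL6B (chromosome XII, 1028854 to 1029768) scored 0.146, 0.0403 and 0.0277 per fl, and -0.00790 per fl in the time course. All 3 stood above percentile 80 in every elutriation experiment.

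RPL7B, at 0.145, 0.0527 and 0.0200 per fl, also stood above percentile 80 in every elutriation experiment. RPL9B scored 0.142, 0.111 and 0.00930 per fl, with percentile 71.4 in experiment 3. RPL8A, a copy of a protein needed early in the assembly of the large subunit, scored 0.223, 0.050 and 0.00702 per fl, and it was one of the 2 members with a score above 0 in the time course, at 0.00283 per fl. The WT series did not keep this order: RPL7B was at percentile 96.7 in elutriated and 7.90 in unelutriated WT cells, and RPL22B at 53.6 and 20.6.

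At the low end of the large subunit stood RPL41B, RPL41A, RPL29, RPP1A, RPL39 and RPL43A, mostly genes of very short proteins. RPL41A and RPL41B encode the smallest protein of the ribosome, at a bridge between the subunits, in 78 coding bases each. RPL41A scored 0.0592, -0.0186 and -0.00186 per fl in experiments 1 to 3, and RPL41B 0.0171, -0.0162 and 0.00130 per fl. RPL29 scored 0.0383, -0.0120 and 0.00258 per fl and RPL39, a non-essential protein of the exit tunnel, 0.0356, 0.000979 and 0.000880 per fl. RPL43A scored 0.0841, -0.00750 and 0.00182 per fl. Each of these genes was above the median gene in experiment 1 and below it in experiment 2. The RPL41 sequences are shown because reads of so short and similar a pair can hardly be assigned to 1 copy. They are the coding strands of build R64 from RefSeq, at chrIV:130407-130484 and chrIV:221724-221801, both on the minus strand, and capitals mark the base that differs (C9T from A to B, counted from 1 at the A of the start codon).
RPL41A: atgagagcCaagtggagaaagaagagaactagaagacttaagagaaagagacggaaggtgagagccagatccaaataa
RPL41B: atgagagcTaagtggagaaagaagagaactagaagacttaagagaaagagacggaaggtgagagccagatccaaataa
With a coding identity of 98.7%, RPL41A and RPL41B shared 69.0% of their windows of 50 bases, and no source used here says how reads that match both were assigned.

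Within the small subunit, RPS9A, RPS0B, RPS24B, RPS4B, RPS6B and RPS13 had the highest mean percentiles. RPS9A (chromosome XVI, 404950 to 406044), a copy of a protein involved in the accuracy of decoding, scored 0.409, 0.100 and 0.0189 per fl in experiments 1 to 3, and -0.00809 per fl in the time course. RPS0B scored 0.134, 0.0749 and 0.0140 per fl. RPS6B, a copy of the protein phosphorylated downstream of TOR, scored 0.106, 0.0544 and 0.0107 per fl. Each of the 6 stood above the median gene in each of the 4 Cdc28-as series. For RPS13, a gene without a paralogue, scores were 0.271, 0.0414 and 0.0103 per fl, for RPS24B 0.178, 0.0720 and 0.00976 per fl, and for RPS4B 0.152, 0.0391 and 0.0133 per fl. RPS9A left this pattern in WT cells, at percentile 34.8 in the elutriated and 17.9 in the unelutriated series. With RPL6B and RPL14B, the last named after its values were seen, it was 1 of 3 members, among the 124 scored in both WT series, above the median gene in each Cdc28-as series and below it in both WT series, against 3.08% of all genes, a share near that of the members.

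The lowest of the small subunit were RPS27A, RPS29A, RPS30A, RPS30B, RPS29B and RPS25A. RPS27A, a copy of a zinc-finger protein, scored 0.00538, 0.0125 and -0.00422 per fl, and -0.0239 per fl in the time course, the lowest member there. It was 1 of 2 members below the median gene in experiment 1, beside RPL15B at 0.000837 per fl. RPS29A scored 0.0514, -0.0159 and 0.000254 per fl and RPS29B 0.0306, -0.00874 and 0.00245 per fl. RPS30A, RPS30B and RPS25A were above the median gene in experiment 1, at percentiles 70.2, 84.7 and 72.1, and below it in experiment 2, at 28.5, 19.9 and 33.7.

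The P-stalk recruits the translation factors that hydrolyse GTP, and RPP0 is the scaffold that carries its P1 and P2 proteins. RPP0 scored 0.0855, 0.0293 and 0.00956 per fl, and at -0.000938 per fl in the time course it stood at percentile 94.9. RPP1B scored 0.0983, 0.0139 and 0.00506 per fl, and RPP2B 0.0589, 0.0222 and 0.00281 per fl. These 3 were above the median gene in each of the 4 Cdc28-as series. RPP1A scored 0.0179, 0.00298 and 0.00241 per fl and RPP2A 0.0869, -0.00860 and 0.00702 per fl, and in experiment 2 both stood below the median gene. RPP2A had a median read count of only 11.5.

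Proteins with a known place in assembly or function lay across the range. RPL5 and RPL11, which enter the large subunit together with 5S ribosomal RNA, were above the median gene in each of the 4 Cdc28-as series, with RPL5 at 0.0708, 0.0187 and 0.00489 per fl, RPL11A at 0.0751, 0.0464 and 0.00231 per fl and RPL11B at 0.137, 0.0313 and 0.00733 per fl. RPL25, at the exit of the tunnel where chaperones dock, scored 0.130, 0.0285 and 0.00539 per fl. RPL10, which joins late in the cytoplasm, scored 0.0593, 0.0382 and 0.00140 per fl, and RPL30, whose protein blocks the splicing of its own transcript, 0.105, 0.0170 and 0.00136 per fl.

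Others were above the median gene in experiment 1 but not in experiment 2. RPL3, beside the peptidyl transferase centre, scored 0.0832, -0.000737 and 0.00445 per fl. RPL28, the site of cycloheximide resistance mutations, scored 0.0517, 0.00181 and 0.00248 per fl. RPS3, at the entry of the messenger RNA channel, scored 0.0465, 0.00818 and 0.00675 per fl, and RPS31, made as a fusion to ubiquitin, 0.0748, 0.00401 and 0.00203 per fl. The ubiquitin fusions RPL40A and RPL40B differed in experiment 2, at percentiles 36.5 and 60.9.

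**Figure D2:**
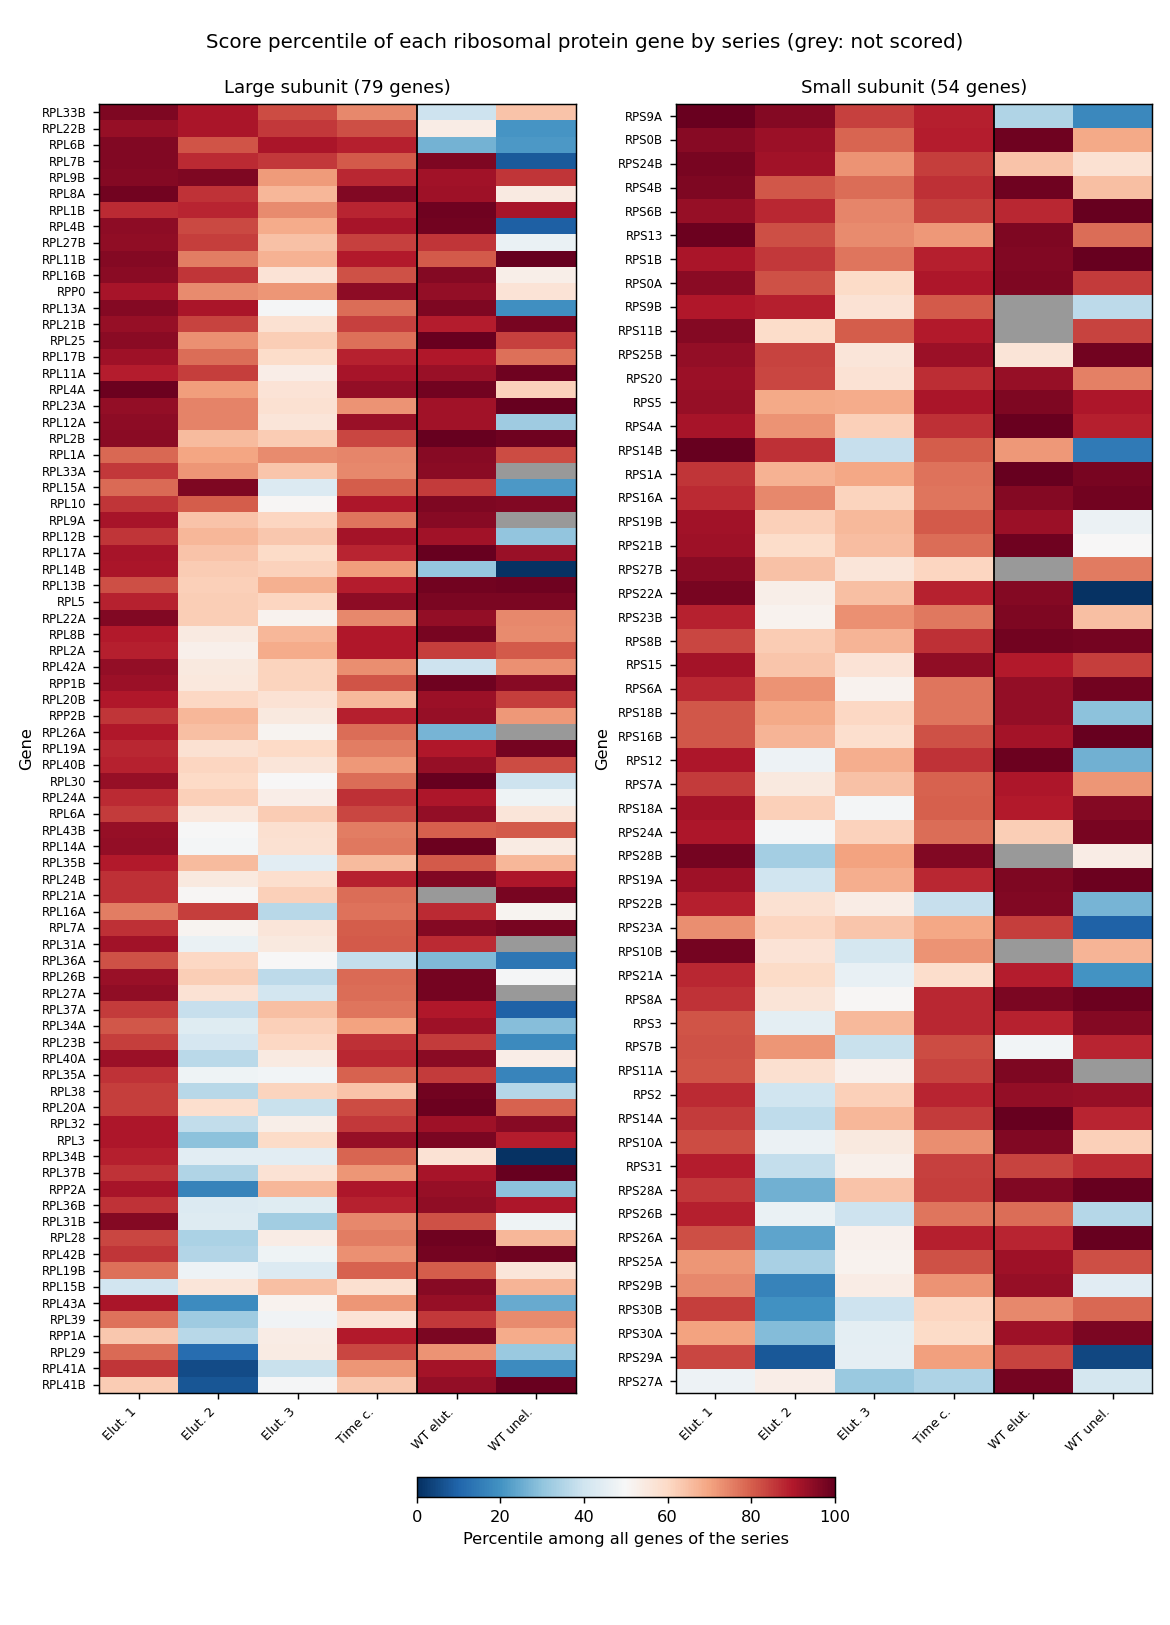
Percentile of 79 large and 54 small subunit genes (rows, by subunit, sorted by the mean of the 3 elutriation experiments) in the 6 series (columns, Cdc28-as left and WT right of the line); red is above and blue below the median gene, grey not scored. Red fills the columns of experiment 1, the time course and elutriated WT cells. The sorting mean includes experiment 2, which by itself places blue cells of that column towards the bottom. Short genes such as RPL41A and RPS29A are among those rows.

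Genes with a short coding sequence scored lower within the family. Coding lengths ran from 78 to 1164 bases with a median of 432. Across the 137 genes, Spearman's rho between score and coding length was 0.18, 0.54 and 0.41 in experiments 1 to 3 and 0.50 in the time course. Across all genes the same rho was -0.03, 0.16, -0.06 and -0.08, and across other genes in the members' range of lengths it was 0.04, 0.25, 0.03 and 0.02. These are descriptions across genes, which share libraries and are not independent replicates.

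Both subunits had the relation. In experiment 2 the rho was 0.54 in large and 0.52 in small subunit genes, and in the time course it was 0.51 in large and 0.46 in small ones. Members with at least 588 coding bases had a median percentile of 72.5 in experiment 2, where those with at most 342 bases had 40.7. Other genes of these lengths stood at 52.2 and 20.2 in experiment 2, a gap like that of the members. In the time course the long and short members were at 87.9 and 73.6 (other genes 51.6 and 46.6), in experiment 3 at 66.2 and 53.9 (other genes 55.3 and 47.1), and in experiment 1 at 89.9 and 85.8 (other genes 51.2 and 43.7). Among mitochondrial ribosomal protein genes the rho was 0.61 in experiment 2 and -0.09, 0.10 and -0.10 in experiment 1, experiment 3 and the time course. Length also went with reads per kb among the members (rho -0.34). Between score and reads per kb the members' rho was -0.48, -0.49 and -0.20 in experiments 1 to 3 and -0.23 in the time course. The part of reads per kb and of library preparation in the relation was not tested.

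**Figure D3:**
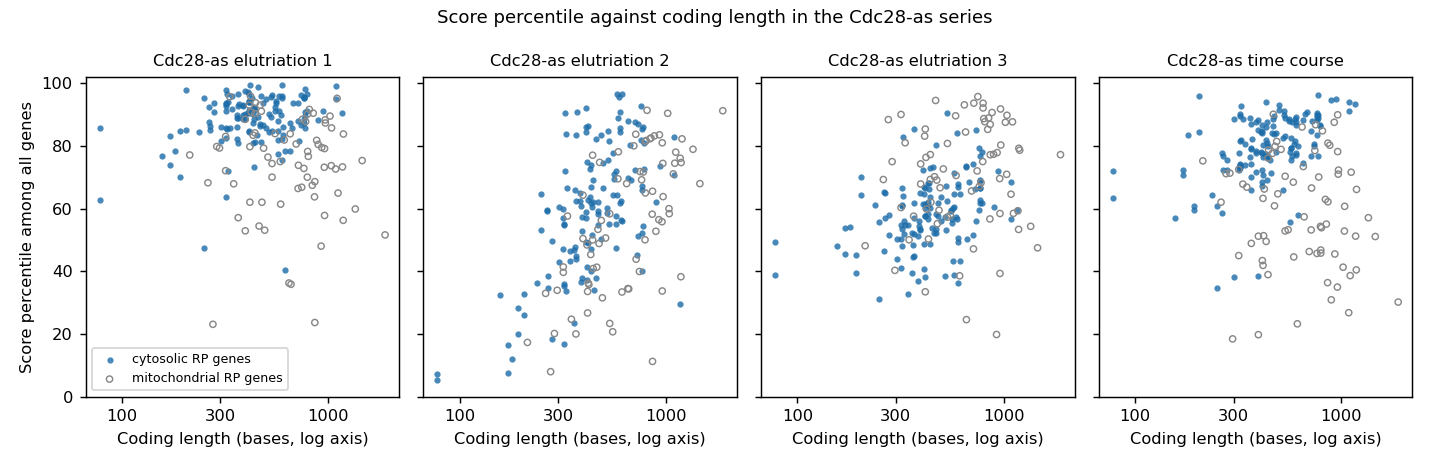
Score percentile (vertical axis) against coding length in bases (horizontal log axis) in the 4 Cdc28-as series for cytosolic (filled) and mitochondrial (open) ribosomal protein genes. In experiment 2 the filled points climb from 5.32 and 7.33 for RPL41A and RPL41B at 78 bases to mostly above 50 beyond 588 bases; in experiment 1 most stay above 75 over the whole range.

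Members with an intron stood lower in the time course. The 89 members with an intron in the coding sequence had a median percentile of 77.9 there, and the 48 without one 88.2. In experiments 1 to 3 the medians were 90.8, 60.5 and 57.6 with an intron and 87.8, 59.3 and 60.1 without. Genes of small nucleolar RNAs (SNR39, SNR59 and SNR44) overlap RPL7A, RPL7B and RPS22B, and no source used here says whether their reads were counted with the host gene.

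The A copy scored below its B copy in most pairs of the elutriation experiments. The A copy was higher in 23 and the B copy in 36 of the 59 pairs in experiment 1, A in 18 and B in 41 in experiment 2, and A in 23 and B in 36 in experiment 3. The median difference, A minus B, was -0.0213, -0.00713 and -0.00210 per fl in experiments 1 to 3. In the time course the copies were nearly even, with A higher in 28 and B in 31 pairs and a median difference of -0.000145 per fl. In WT cells A was higher in 28 and B in 25 of 53 elutriated pairs, and A in 22 and B in 30 of 52 unelutriated pairs.

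The order of copies held across experiments in a minority of pairs. The A copy was higher in all 3 elutriation experiments in 4 pairs (6.78%) and the B copy in 19 (32.2%), and in the remaining 36 pairs the order differed between experiments. Among ordered pairs of members that are not paralogues, the first was higher in all 3 in 22.4%, and among ordered pairs of any genes in 21.4%. Each of these shares counts a single direction, and the reverse direction has the same share. One order, in either direction, was kept by 39.0% of the paralogue pairs, no more than among those other pairs. Across all 4 Cdc28-as series A was higher in 2 pairs and B in 14, against 15.4% of ordered pairs of members that are not paralogues and 12.2% of ordered pairs of any genes. With 1 experiment left out, A was higher throughout in 9, 9 and 10 pairs, and B in 22 to 28. These counts tend to rise with fewer experiments, and the shares among other pairs were not computed for them.

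Copies of a pair were not closer in score than other members in every experiment. The median absolute percentile difference within pairs was 6.71, 13.5 and 11.8 in experiments 1 to 3, against 6.21, 20.5 and 10.6 between members that are not paralogues. Spearman's rho between the A and the B score over the 59 pairs was 0.00 in experiment 1, 0.42 in experiment 2, 0.17 in experiment 3 and 0.45 in the time course. In experiments 1 and 2 the read count moved with the order of copies. Per kb, the A copy had more reads in 36 pairs and the B copy in 23, and the copy with fewer reads per kb was the higher-scoring one in 43, 42 and 27 pairs in experiments 1 to 3 and in 30 in the time course. Of the 19 pairs with B higher throughout, B had fewer reads in 16, and of the 4 with A higher throughout, A had fewer in 3. The read count comes from experiment 1 and shares its libraries with that score, and its part in the result was not tested.

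Among the 10 pairs with the largest mean difference, 9 had the B copy higher on average. In the RPS27 pair the A copy scored 0.00538, 0.0125 and -0.00422 per fl and the B copy 0.129, 0.0206 and 0.00306 per fl, a mean percentile difference, A minus B, of -27.9 ± 18.4 (SD, n = 3). The RPS25 pair encodes a protein needed for initiation at certain internal ribosome entry sites. RPS25A scored 0.0277, 0.00164 and 0.00190 per fl and RPS25B 0.110, 0.0448 and 0.00311 per fl (-25.3 ± 23.2). Both pairs kept the B copy higher in all 4 Cdc28-as series.

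The RPL7 pair gave 0.0634, 0.0114 and 0.00316 per fl for A and 0.145, 0.0527 and 0.0200 per fl for B (-24.8 ± 13.6). The RPL6 pair gave 0.0560, 0.0139 and 0.00548 per fl for A and 0.146, 0.0403 and 0.0277 per fl for B (-22.0 ± 9.2). Both had the same order in all 4 Cdc28-as series, but in unelutriated WT cells the A copy led by 89.5 percentile points in the RPL7 and by 34.7 in the RPL6 pair. In elutriated WT cells the A minus B difference was -0.741 percentile points in the RPL7 pair, with 15.7 per h for A and 20.5 per h for B, and 67.6 in the RPL6 pair. RPL6A had 669 and RPL6B 81.0 reads per kb, the widest gap in reads among these pairs.

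Further pairs with B higher among these had mean percentile differences of -20.2 ± 19.8 for RPS24, -19.6 ± 19.8 for RPL22, -18.7 ± 10.8 for RPP1 and -17.1 ± 14.8 for RPL27 (SD, n = 3 each). For RPL22 the order turned in experiment 1, where RPL22A scored 0.150 and RPL22B 0.103 per fl. RPL15 was the 1 pair of the 10 with A higher on average, at 19.1 ± 35.2, and its differences of 38.1, 40.7 and -21.6 percentile points changed sign in experiment 3. RPL15B had 11.5 reads. The pairs nearest to 0 on average included RPS30, RPL24, RPS29 and RPL34, from -2.56 to 2.70 percentile points.

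Pairs with A higher in all 3 experiments were RPS9, RPL42, RPL19 and RPS16, of which the last 3 are named after their values were seen. RPS9A scored 0.409, 0.100 and 0.0189 per fl and RPS9B 0.0792, 0.0586 and 0.00365 per fl, with a mean percentile difference of 14.3 ± 10.9 (SD, n = 3). RPS9A also had more reads per kb than RPS9B, 375 and 73.1. The RPS14 pair, in which the Rps14 protein is known to repress RPS14B, changed order between experiments. RPS14A scored 0.0560, 0.00360 and 0.00697 per fl and RPS14B 0.528, 0.0510 and -0.00201 per fl. The 0.528 of RPS14B was the highest member score of experiment 1, from a gene with a median read count of 42.5.

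**Figure D4:**
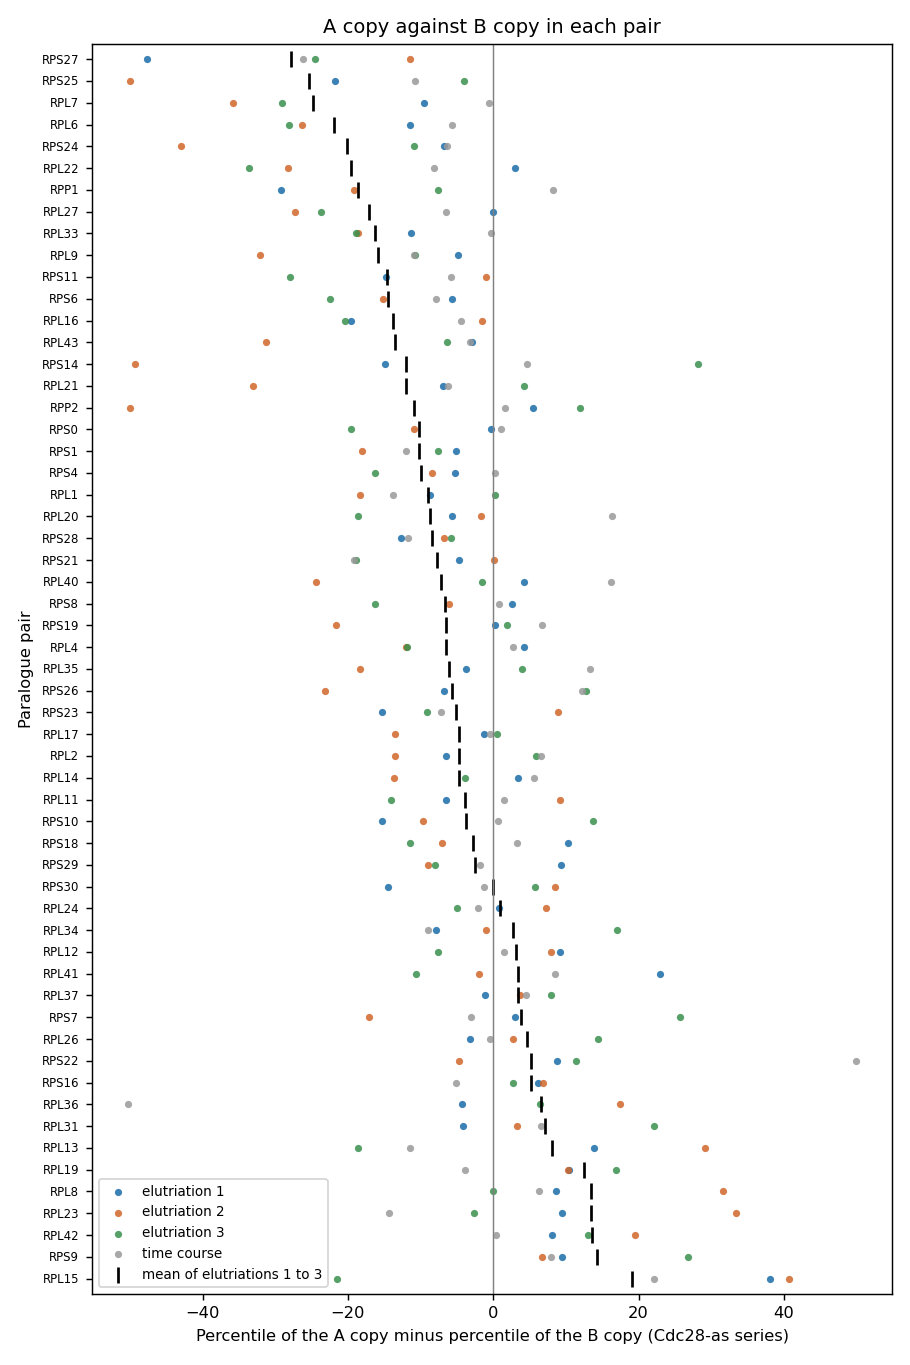
Percentile of the A copy minus percentile of the B copy (horizontal axis) for 57 pairs (rows, sorted by the mean of the 3 elutriation experiments, black ticks); coloured points are the 3 elutriation experiments and grey points the time course. Most ticks lie left of 0, where the B copy is higher, and in most rows the points fall on both sides of 0.

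Sequence likeness sets a limit on these pair comparisons. Coding identity between copies ran from 68.9% (RPP1) to 99.4% (RPL1) with a median of 93.2%, and 20 pairs were at 95% or more. In 19 pairs the copies shared no window of 50 bases, and in 8 they shared at least 50% of them, up to 81.0% in RPL1. RPS27, RPS25, RPL6, RPL22, RPP1 and RPL27 shared none, while RPL7 shared 56.9% and RPS24 38.2%. The values of highly similar copies are therefore uncertain, as reads may be split between them.

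Upstream regions of the RPL7 pair are shown because its copies differ both in score and in the promoter strings found. For each gene, 300 bases on the coding strand are given, from 400 to 101 bases before the start codon, read from RefSeq's build R64: RPL7A at chrVII:366097-366396 (minus strand) and RPL7B at chrXVI:172752-173051 (plus strand). Capitals mark matches on the printed or the opposite strand to a Rap1-type string, ACCCNNACA, or a Fhl1-type string, GACGC.
RPL7A: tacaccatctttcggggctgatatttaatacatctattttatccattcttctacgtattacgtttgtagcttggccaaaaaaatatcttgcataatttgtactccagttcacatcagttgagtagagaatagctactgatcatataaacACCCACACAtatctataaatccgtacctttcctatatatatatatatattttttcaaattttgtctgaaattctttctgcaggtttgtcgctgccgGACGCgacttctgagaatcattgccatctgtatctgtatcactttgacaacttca
RPL7B: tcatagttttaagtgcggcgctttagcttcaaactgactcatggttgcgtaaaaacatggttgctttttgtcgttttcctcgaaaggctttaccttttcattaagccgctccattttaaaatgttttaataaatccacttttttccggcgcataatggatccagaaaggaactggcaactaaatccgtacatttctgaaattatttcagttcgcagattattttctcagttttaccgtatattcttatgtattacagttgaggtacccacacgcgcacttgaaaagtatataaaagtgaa
In this pair the lower-scoring A copy holds both strings and the B copy neither. A missing match says only that these letters are not in the window.

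Over the whole family, a 400-base window from 500 to 101 bases before the start codon was searched on both strands, and none of the strings searched contains another. ACCCNNACA occurred in 54 of 137 windows (39.4%), against 5.01% of 6008 windows of all genes. GACGC occurred in 41.6%, against 27.1% of all windows, and the PAC string GCGATGAG of ribosome biogenesis promoters in 0.73%, against 3.70% of all windows. ACCCNNACA was found for 33.9% of A copies and 47.5% of B copies. Members with and without it had like scores, at median percentiles 89.9 and 89.9 in experiment 1, 61.3 and 59.5 in experiment 2, 61.1 and 56.8 in experiment 3, and 78.0 and 83.6 in the time course.

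Genes that control, chaperone or bind ribosomal proteins were listed from textbook knowledge. Of 22 regulators of ribosomal protein genes, 4 scored above and 7 below the median gene in all 3 elutriation experiments, where 22.3% of all genes were above and 22.5% below. CKB2, a casein kinase subunit, scored 0.0464, 0.0348 and 0.0110 per fl, and ESA1, a histone acetyltransferase, 0.0149, 0.0429 and 0.0200 per fl. CRF1, a corepressor of these genes, scored -0.0189, -0.00797 and -0.0140 per fl and TOR1, a kinase of the TOR pathway, -0.0106, -0.00380 and -0.00625 per fl.

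Of 22 chaperones and cotranslational factors, 14 were above the median gene throughout the 3 experiments (63.6%, against 22.3% of all genes) and 0 below it, against 22.5% of all genes. ACL4, the chaperone of Rpl4, scored 0.225, 0.0799 and 0.0400 per fl and SYO1, which imports Rpl5 and Rpl11, 0.134, 0.0749 and 0.0338 per fl. BTT1 and EGD1, subunits of the nascent polypeptide-associated complex, scored 0.0263, -0.00944 and -0.00640 per fl and 0.0231, 0.00294 and 0.000343 per fl. In the time course, however, only 8 of the 22 were above the median gene, and SYO1 was at percentile 1.89. Of 10 ribosome-bound and hibernation factors 6 were above (against 22.3% of all genes) and 2 below (against 22.5%) in all 3 experiments. Among them were TMA46 at 0.0694, 0.0743 and 0.0247 per fl and ASC1 at 0.101, 0.0202 and 0.0131 per fl above it, and LSO2 at -0.00444, -0.00676 and -0.00357 per fl and MBF1 at -0.00697, 0.0101 and -0.0144 per fl below it. None of these genes passed limma's test after adjustment (lowest adjusted p = 0.460).

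The mitochondrial ribosomal protein genes, which serve another ribosome, stood lower than the cytosolic genes in every series but experiment 3. Their median percentiles were 76.7, 57.1 and 71.5 in experiments 1 to 3 and 60.9 in the time course, where those of the cytosolic genes were 89.9, 60.5, 58.1 and 80.7. In WT cells they were 63.3 elutriated and 29.2 unelutriated, where those of the cytosolic genes were 93.6 and 73.7. The order of the families thus turned in experiment 3, and their difference was not tested.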

How the data were processed

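RNA was measured in 31 libraries. The submitters' processing notes name Bowtie2 and build R64. No source used here says how reads were counted and scaled, whether strand was used, or what role the added Candida cells had. The authors deposited 1 table with a scaling score per gene and series and a median read count per gene, a signal of experiment 1 that is not a whole number for 2779 genes. No source used here states the formula of the score. It was inferred from genes that hold exactly the slope of a transcript detected in the first library only (within 1e-07), which were 104 in experiment 1, 111 in experiment 3 and 96 and 44 in the elutriated and unelutriated WT series. Experiment 2 and the time course had only 2 and 3 such genes, so that the formula is assumed there. Without counts per library, counting error has no interval here. In the table, 4 lines were empty, and 6 and 7 members had no score in the elutriated and unelutriated WT series.

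Percentiles, medians and pair differences were computed with Python 3.11.15 and pandas 2.3.3, and all 137 members matched an R64 locus. For the test, the median over 5771 genes scored in all 3 elutriation experiments was subtracted in each. Then limma 3.58.1 in R 4.3.3 fitted a one-sample moderated test, adjusted over all these genes at a threshold of 0.05. The fit was tried on simulated data with large shifts and the same spread in every experiment. These settings differ from the data, so the trial says nothing of the power here. Coding identity, shared windows of 50 bases and upstream strings came from RefSeq's R64. Alternatives were a minimum of 10 reads, 50 reads for both copies, other centrings and scales, the time course as a further series, each experiment left out, P-stalk genes left out, members of at least 300 coding bases and pairs under 95% identity. Members and lists were chosen with earlier results of these data known. Named genes are the 6 highest and lowest of each subunit by mean percentile over the elutriation experiments, all P-stalk genes, the 10 pairs with the largest and 5 with the smallest mean difference, the 2 highest and lowest of each list, and members with textbook roles; others are said to be named after their values were seen. Some genes under this rule are not reported here by name, but all members enter the counts and medians.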

Additional observations from a re-analysis of the deposited data

Results flagged for a closer look

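For 2 pairs and 3 genes, all 4 Cdc28-as series fell on one side and both WT series on the other. The differences between genotypes were not tested, and WT scores run on hours, Cdc28-as scores on size. Such a split, higher than the median gene in each of the 4 Cdc28-as series and below it in both WT series, was held by 163 of 5296 genes (3.08%). For pairs no such share over other gene pairs was computed, so the count of 2 pairs is a description only. In all 4 Cdc28-as series A was higher in 2 pairs and B in 14. In the RPL6 pair the A minus B percentile averaged -17.9 in Cdc28-as cells and 51.2 in WT cells. In the RPL42 pair it averaged 10.2 in Cdc28-as cells and -41.9 in WT cells. The RPL42 difference was only 0.376 percentile points in the time course. Its copies had a coding identity of 98.1% and shared 47.8% of their windows of 50 bases, so reads may be split between them. RPS9A averaged percentile 92.0 in Cdc28-as cells and 26.4 in WT cells, RPL6B 89.4 in Cdc28-as cells and 23.8 in WT cells, and RPL14B 71.4 in Cdc28-as cells and 15.6 in WT cells. RPL42 and RPL14B were named after their values were seen.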

How the results depend on the processing

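Over 14 results and 78 alternatives, 63 values stayed within the limits set for them, 12 moved and 3 changed sign. The cause of these changes was not tested. Counts were held to a set ratio, values to the SD over the elutriation experiments, and differences of percentiles to their sign. The limits were wide. The SD was 17.7 points for the median percentile and 0.00997 per fl for A minus B, whose main value was -0.00967 per fl. A value within its limit may thus still have changed much. The 3 that changed sign were the difference between large and small subunit genes, which was -0.000572 per fl among members of at least 300 coding bases (an alternative chosen after seeing the data), -4.4951e-05 per fl without experiment 1 and -0.420 as a difference of percentiles. With each elutriation experiment left out in turn, this difference ran from -4.4951e-05 to 0.00193 per fl. The same omissions gave 81 to 104 members above the median gene and 0 to 13 below it in all remaining experiments. They gave 9 to 10 pairs with A higher and 22 to 28 with B higher, and a median A minus B difference from -0.0135 to -0.00489 per fl. For these omissions the shares over all genes and over other pairs were not computed, and such counts tend to rise with fewer experiments. With the time course added, A was higher throughout in 2 pairs. By limma 0 members passed after adjustment under all 9 settings, and neither did any other gene. On percentiles limma gave the lowest adjusted p, 0.0876. There 33 of 137 members had an unadjusted p under 0.05, all of them higher. Among all 5771 genes 1577 had one, of which 767 were higher. No paired analysis was possible because the table holds no value per library. The alternative on pairs with unlike proteins was not run, as no protein sequence was used here; coding identity under 95% was tried instead, after seeing the data, and no pair was identical. Unknown depth per library limits all scores, most of all those of RPS28B, with 4 reads, and of RPL15B and RPP2A, with 11.5 reads each.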
